A study of Homo sapiens with 9 samples.

Results

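Genes of DNA damage repair were followed in HT-29 cells, a human colon cancer cell line, cultured with the demethylating nucleoside 5-Aza-deoxycytidine (5-Aza). The 36 genes were a named list, taken by symbol from the 23284 gene symbols of the RNA-Seq data, and all 36 were listed above 0 in all 9 libraries. They comprised 8 Fanconi core complex and anchor genes, the 2 genes of the ID2 complex, 6 genes of the BRCA1 and BRCA2 axis, 6 genes of the RAD51C, RAD51D, XRCC and RAD54 group, 3 genes of the BLM and EXO1 group, 4 damage kinases, 4 chromatin mediators, and MGMT with 2 mismatch repair genes. Triplicate cultures received vehicle (DMSO) alone, called 0 µM, or 5 µM 5-Aza, or 10 µM 5-Aza, for 5 days. The labels name the 3 cultures of a group as biological replicates, and all are of 1 cell line.

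5-Aza is incorporated into DNA in place of deoxycytidine and traps DNA methyltransferases there as protein adducts, so it both removes methylation and leaves lesions that replication forks can meet. In the Fanconi pathway, a core complex of ubiquitin ligase subunits attaches ubiquitin to the FANCD2 and FANCI pair at a stalled fork. Homologous recombination then acts through BRCA1, PALB2 and BRCA2, which prepare the broken end for pairing with an intact copy, while ATM, ATR and their downstream kinases CHEK1 and CHEK2 signal the damage to the cell cycle. MGMT acts alone, by moving alkyl groups from guanine to itself, and is a gene well known for promoter methylation in colon tumors.

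Values are FPKM as deposited, fragments scaled to transcript length and library size, so levels of different genes are compared per length. Their sums over a library were between 3.69e+09 and 5.91e+09, far above what that scaling gives by definition, and they were used as relative values. Each gene is compared on log2(FPKM + 1), with its standard error (SE). "Rose" and "fell" are used only for an adjusted p of at most 0.05 (limma, Benjamini-Hochberg over all genes tested), and a gene is said to be past both thresholds when it also differed by more than 2-fold. With 3 cultures against 3, the exact permutation test cannot go below p = 0.1, and it gave 0.1 for every one of the 36 genes whose groups did not overlap.

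The number of symbols above 0 was between 16373 and 16958 in the control libraries, between 18761 and 18957 at 5 µM and between 17114 and 17592 at 10 µM. All 12 colon epithelial markers were above 0 in every library. Their summed level was between 90320752 and 108609823 FPKM at 0 µM, between 37768754 and 42430611 at 5 µM and between 29655311 and 52145958 at 10 µM. The 8 fibroblast markers, 2 of them above 0 in all libraries, summed to between 23405 and 32633 FPKM at 0 µM, between 86723 and 94425 at 5 µM and between 46289 and 53827 at 10 µM. The 6 endothelial markers, 2 above 0 in all libraries, summed to between 2580 and 5031, between 10356 and 13996, and between 3869 and 4391 FPKM. The 8 leukocyte markers, which include LYZ, with 5 above 0 in all libraries, summed to between 8698058 and 8952805, between 4659408 and 5506288, and between 4749669 and 6914764 FPKM. The epithelial and leukocyte sums were lower and the fibroblast and endothelial sums higher in all 5 µM libraries than in all control libraries. The sums follow their highest genes. LYZ made up most of the leukocyte sum, at 8530830 to 8777800 FPKM in the control and 3854070 to 4737840 at 5 µM. Other markers of these lists went the other way: CD3E, CD68, ITGAM and CD79A, and the epithelial CDX1, CEACAM5 and CDH17, were higher in all 5 µM libraries than in all control libraries. No marker was listed at 0 in all 9 libraries. The part of these shifts in the results was not tested. In cultures of this kind, a change in the share of cells in a state and a change of RNA per cell cannot be told apart.

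At 5 µM against 0 µM, 17 of the 36 repair genes rose and 4 fell, and 11 rose past both thresholds. These 11 were BRCA2, FANCA, EXO1, XRCC2, BRCA1, RAD54L, BLM, BRIP1, FANCD2, FANCG and FANCI. They made up 30.6% of the list, beside 14.1% of all 20051 genes tested that were past both thresholds upward. By the adjusted p alone, 47.2% of the list rose beside 21.3% of all genes, and 11.1% fell beside 17.7%. None of the 36 was past both thresholds downward, beside 2.17% of all genes. The median log2 difference was 0.46 over the list and 0.14 over all genes tested. Past both thresholds were 2 of 8 Fanconi core and anchor genes, both ID2 genes, 3 of 6 genes of the BRCA axis, 2 of 6 genes of the RAD51C, RAD51D, XRCC and RAD54 group, 2 of the 3 genes with BLM and EXO1, and none of the other 11. Without overlap, 21 genes were above the control (58.3%, beside 29.4% of all genes) and 5 below it (13.9%, beside 23.2%).

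**Figure D1:**
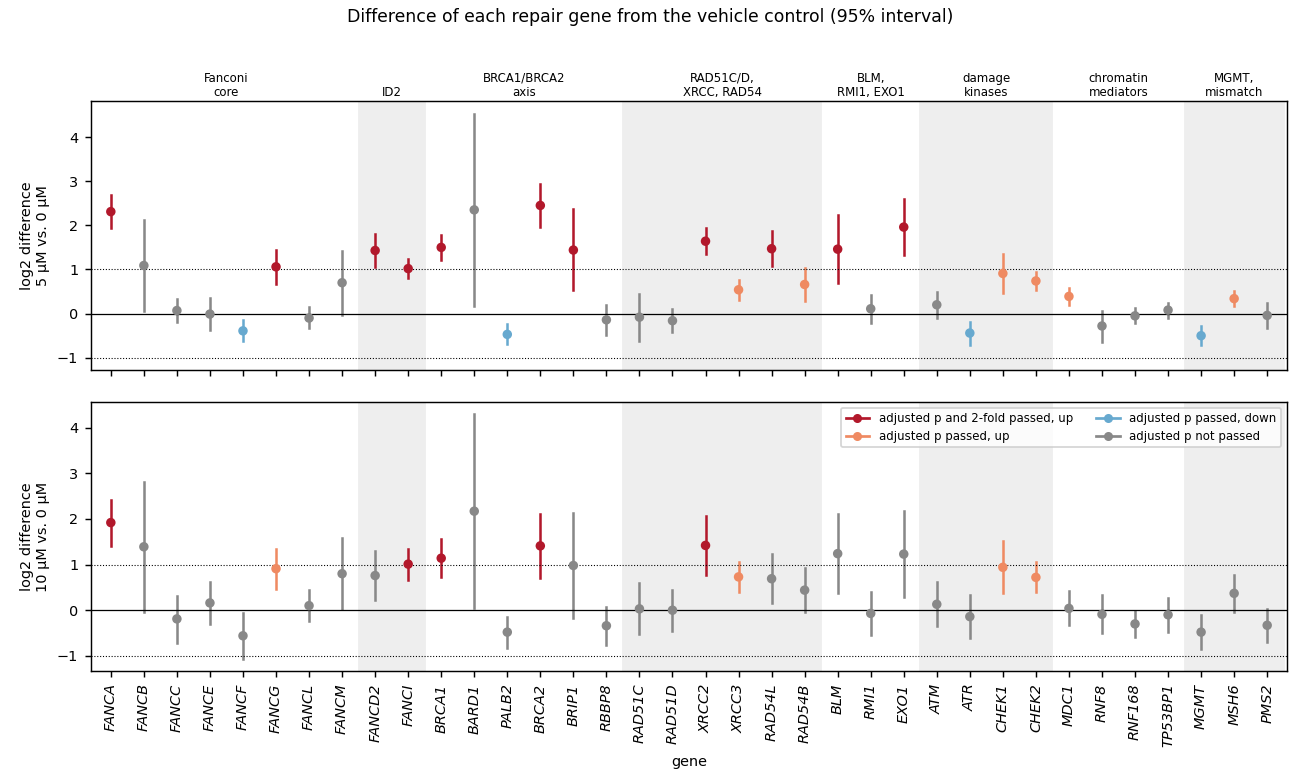
Log2 difference of each of the 36 repair genes from 0 µM, at 5 µM (top) and 10 µM (bottom), as points with 95% confidence intervals, in order of role; dotted lines mark a 2-fold difference. At 5 µM 11 genes are past both thresholds upward, and at 10 µM 5 are. The interval of BARD1 at 5 µM runs from 0.17 to 4.53.

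Among the genes of the Fanconi core complex and its anchor, FANCA and FANCG rose past both thresholds and FANCF fell by the adjusted p. FANCA, a core subunit, lies at chr16:89793091-89883385 (GRCh37, minus strand). Its level was 23057, 23508 and 17891 FPKM in the 3 control cultures, 109047, 91326 and 118879 at 5 µM, with 98605, 83239 and 63851 at 10 µM. Every treated culture was above every control culture. FANCA differed by 2.31 on the log2 scale at 5 µM (SE 0.16, adjusted p = 0.000276) and by 1.92 at 10 µM (SE 0.22, adjusted p = 0.00533). One gene on the opposite strand, ZNF276, shares exon sequence with FANCA, and no source used here says whether strand was used in the counting.

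FANCG, another core subunit, read 41620, 30906 and 29237 FPKM in the control, 76418, 64487 and 68859 at 5 µM, with 63263, 68214 and 57720 at 10 µM. The log2 difference was 1.06 at 5 µM (SE 0.16, adjusted p = 0.00307) and 0.91 at 10 µM (SE 0.19, adjusted p = 0.0237), so it rose at both doses. Without 5 µM replicate 1, control replicate 2 or control replicate 3 it was not past both thresholds at 5 µM. FANCF, an adaptor within the core, went from a mean of 114324 ± 6058 FPKM (SD, n = 3) to 87549 ± 9848, a log2 difference of -0.39 (SE 0.10, adjusted p = 0.0246). It did not pass with all 9 samples in 1 fit (adjusted p = 0.169) or in 4 of the 6 fits that left out 1 culture (adjusted p = 0.0711 to 0.083). FANCC, FANCE and FANCL, which is the ligase subunit itself, did not pass the test, with log2 differences between -0.10 and 0.07. FANCM, the translocase that anchors the core complex to DNA, was higher in all 5 µM than in all control cultures without passing it, at 0.70 (SE 0.30, adjusted p = 0.111). FANCB had the lowest control level of the 36 genes, 1089 ± 344 FPKM, and its difference of 1.09 had an SE of 0.43 (adjusted p = 0.0916).

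Both genes of the ID2 complex, the pair that the core complex ubiquitinates, rose past both thresholds at 5 µM. FANCD2 read 11057, 14457 and 10880 FPKM in the control, 33349, 30901 and 33097 at 5 µM, with 19100, 20784 and 21127 at 10 µM. The 3 groups did not overlap, with 10 µM between the other two. Its log2 difference from the control was 1.43 at 5 µM (SE 0.16, adjusted p = 0.00105) and 0.76 at 10 µM (SE 0.23, adjusted p = 0.0622). FANCI read 52625, 45355 and 46995 FPKM in the control, 95428, 102425 and 95226 at 5 µM, with 105298, 86424 and 99670 at 10 µM. The treated groups overlapped each other and stood above the control. FANCI differed by 1.02 at 5 µM (SE 0.09, adjusted p = 0.000542) and by 1.01 at 10 µM (SE 0.14, adjusted p = 0.00931). Lying at the 2-fold line, it was not past both thresholds at 5 µM without 5 µM replicate 2, control replicate 2 or control replicate 3. FANCD2 has near-identical partial copies elsewhere in the genome, so its level is uncertain to the extent that reads were split among them, and FANCI shares exon sequence with POLG on the opposite strand.

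In the BRCA1 and BRCA2 axis, BRCA1, BRCA2 and the helicase gene BRIP1 rose past both thresholds, and PALB2, which bridges the BRCA proteins, fell by the adjusted p. BRCA2 (chr13:32889223-32974405, GRCh37, plus strand), a central mediator of homologous recombination, had the largest log2 difference of the 36 genes at 5 µM. It read 14122, 12019 and 9074 FPKM in the control, 53857, 67391 and 68954 at 5 µM, with 33174, 39947 and 21730 at 10 µM. The 3 groups did not overlap, and the 10 µM cultures lay between the control and the 5 µM cultures. The log2 difference was 2.45 at 5 µM (SE 0.20, adjusted p = 0.000445) and 1.41 at 10 µM (SE 0.30, adjusted p = 0.0263).

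BRCA1 (chr17:41196312-41322262, GRCh37, minus strand), a ubiquitin ligase that favors recombination over end joining, read 23838, 27065 and 21790 FPKM in the control, 64675, 73588 and 67536 at 5 µM, with 49687, 61343 and 49763 at 10 µM. Again no group overlapped another. The log2 difference was 1.50 at 5 µM (SE 0.12, adjusted p = 0.00039) and 1.14 at 10 µM (SE 0.18, adjusted p = 0.0115). BRIP1, a helicase that binds BRCA1, was low, at 1470, 2687 and 1302 FPKM in the control, 4672, 4791 and 4603 at 5 µM, with 3469, 4001 and 2873 at 10 µM. Its difference of 1.44 at 5 µM (SE 0.38, adjusted p = 0.026) was no longer past the threshold after removal of any one 5 µM culture or of control replicate 1 or with the replicate number as a block (adjusted p = 0.064), and 0.98 at 10 µM was not past it (SE 0.49, adjusted p = 0.188).

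BARD1, the partner with which BRCA1 forms its ligase, had a log2 difference nearly as large as that of BRCA2 but did not pass the test. Its control cultures read 320, 3817 and 1949 FPKM, its 5 µM cultures 6123, 6164 and 8337, and its 10 µM cultures 6299, 8291 and 4140. The difference was 2.35 at 5 µM with an SE of 0.90 (adjusted p = 0.0846). Control replicate 1 was low, and without it the difference was 1.32 (adjusted p = 0.046). Leaving out control replicate 2, the highest, gave 3.10 (adjusted p = 0.0342). PALB2 fell at 5 µM from 70795 ± 3032 to 51307 ± 4403 FPKM, a log2 difference of -0.47 (SE 0.09, adjusted p = 0.00984). RBBP8, which encodes the end resection factor CtIP, read 194021 ± 21298 FPKM in the control and 176977 ± 29051 at 5 µM and did not pass the test.

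Of the 6 genes of the RAD51C, RAD51D, XRCC and RAD54 group, XRCC2 and RAD54L rose past both thresholds, XRCC3 and RAD54B rose by the adjusted p, and RAD51C and RAD51D did not pass the test. RAD51C, RAD51D, XRCC2 and XRCC3 act on single-stranded DNA in homologous recombination. XRCC2 (chr7:152341861-152373278, GRCh37, minus strand) read 12012, 12906 and 12876 FPKM in the control, 36509, 42566 and 38536 at 5 µM, with 47048, 33892 and 24159 at 10 µM. The control cultures were close together and below every treated culture, while the 10 µM cultures spread around the 5 µM ones. XRCC2 differed by 1.64 at 5 µM (SE 0.12, adjusted p = 0.000345) and by 1.42 at 10 µM (SE 0.27, adjusted p = 0.0207).

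RAD54L, a motor protein of homologous recombination, read 15657, 11235 and 12986 FPKM in the control, 39462, 35384 and 34723 at 5 µM, with 23357, 18676 and 22054 at 10 µM. No group overlapped another, and 10 µM lay in between. The log2 difference was 1.47 at 5 µM (SE 0.16, adjusted p = 0.00103) and 0.69 at 10 µM (SE 0.23, adjusted p = 0.0816). XRCC3 rose by 0.54 at 5 µM (SE 0.10, adjusted p = 0.0064) and by 0.73 at 10 µM (SE 0.14, adjusted p = 0.0194). RAD54B rose by 0.66 at 5 µM (SE 0.16, adjusted p = 0.0178) but did not pass with the replicate block (adjusted p = 0.0534) or without 5 µM replicate 2, 5 µM replicate 3 or control replicate 2 (adjusted p = 0.0539, 0.0646 and 0.0547). RAD54L, XRCC3 and RAD54B share exon sequence with LRRC41, KLC1 and FSBP, the last on the same strand.

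BLM and EXO1 rose past both thresholds at 5 µM and RMI1, the partner of BLM in dissolving joined DNA, did not pass the test. BLM, a helicase, read 7243, 4914 and 3475 FPKM in the control, 11457, 15535 and 14417 at 5 µM, with 13901, 12139 and 9759 at 10 µM. The treated cultures overlapped each other and stood above the control. BLM differed by 1.46 at 5 µM (SE 0.32, adjusted p = 0.0132) and by 1.24 at 10 µM (SE 0.37, adjusted p = 0.0603), and it was not past both thresholds at 5 µM without 5 µM replicate 2 or 3. EXO1, an exonuclease of end resection and mismatch repair, read 2047, 1863 and 1798 FPKM in the control, 6698, 8278 and 7294 at 5 µM, with 4832, 5092 and 3585 at 10 µM. Its groups did not overlap, with 10 µM between the others. EXO1 differed by 1.96 at 5 µM (SE 0.26, adjusted p = 0.00196) and by 1.23 at 10 µM (SE 0.41, adjusted p = 0.0783).

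**Figure D2:**
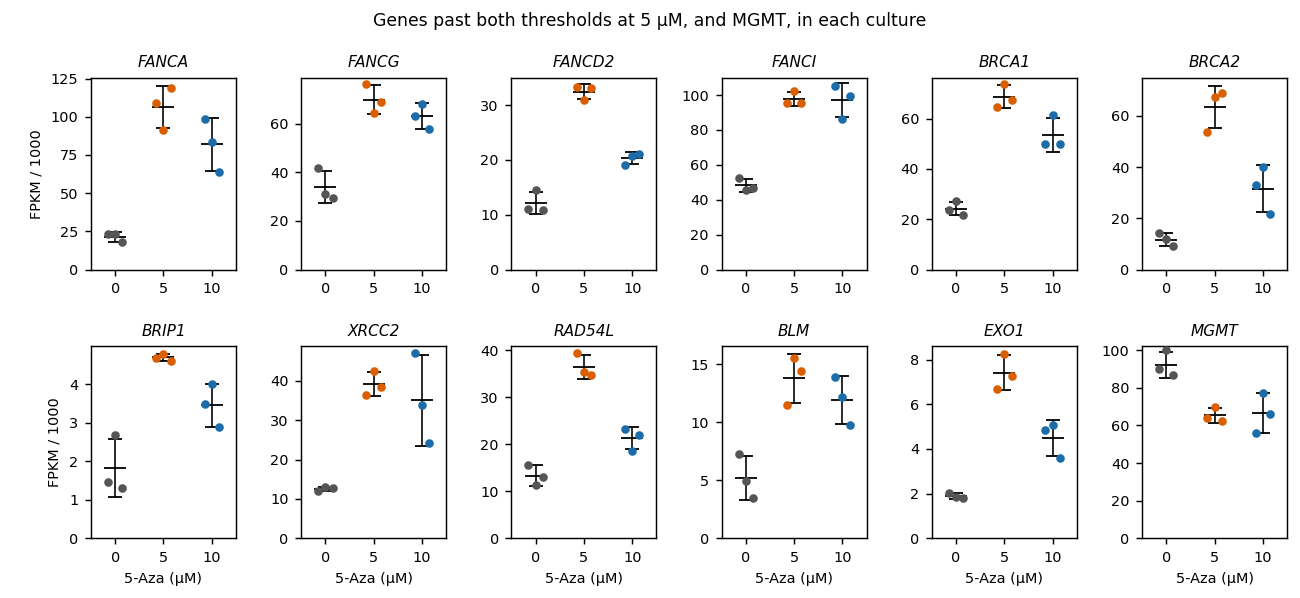
FPKM divided by 1000 (axes from 0) of the 11 genes past both thresholds at 5 µM and of MGMT in each culture at 0, 5 and 10 µM 5-Aza; points are cultures, bars the mean ± SD (n = 3). In FANCD2, BRCA1, BRCA2, BRIP1, RAD54L and EXO1 the 10 µM cultures lie between the others without overlap, and MGMT lies lower in all 6 treated cultures.

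The damage kinases were divided. The effector kinases CHEK1 and CHEK2 rose at both doses without reaching 2-fold, ATR fell at 5 µM, and ATM did not pass the test. CHEK1, which acts below ATR, read 16004, 24106 and 21916 FPKM in the control, 36075, 42346 and 36666 at 5 µM, with 32195, 48330 and 38246 at 10 µM, with no treated culture as low as a control culture. It rose by 0.91 at 5 µM (SE 0.18, adjusted p = 0.00957) and by 0.94 at 10 µM (SE 0.24, adjusted p = 0.0431). CHEK2, which acts below ATM, rose by 0.74 (SE 0.08, adjusted p = 0.00121) and by 0.72 (SE 0.14, adjusted p = 0.0208). CHEK2 has near-identical partial copies elsewhere in the genome, which makes its level uncertain.

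ATR, the kinase that senses single-stranded DNA at forks, read 99336, 99108 and 97884 FPKM in the control, 62801, 75963 and 81079 at 5 µM, with 96256, 112426 and 66988 at 10 µM. The 5 µM cultures were below the control and the 10 µM cultures lay on either side of it. The log2 difference was -0.44 at 5 µM (SE 0.11, adjusted p = 0.0209) and -0.14 at 10 µM (SE 0.20, adjusted p = 0.623). The fall did not pass with all 9 samples in 1 fit (adjusted p = 0.11) or without control replicate 1 or 2 (adjusted p = 0.0565 and 0.0624). ATM, the kinase that responds to double-strand breaks, read 85847, 92073 and 114703 FPKM in the control, 111986, 106814 and 113920 at 5 µM, with 134079, 107191 and 83242 at 10 µM. The groups overlapped, and the log2 difference was 0.20 at 5 µM (95% interval -0.09 to 0.48) and 0.13 at 10 µM (-0.35 to 0.62).

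Of the chromatin mediators, which bind marked chromatin around a break, MDC1 alone passed the test at 5 µM. MDC1, the scaffold that reads the first mark, went from 50687 ± 2430 FPKM to 66250 ± 1319, a rise of 0.39 (SE 0.08, adjusted p = 0.0104) that missed the threshold with the replicate block (adjusted p = 0.0501). The ubiquitin ligase genes RNF8 and RNF168 had log2 differences of -0.28 and -0.05. TP53BP1, whose protein shields ends from resection, had the highest level of the 36 genes in each group, with a mean of 242339 ± 3210 FPKM in the control and 255828 ± 18911 at 5 µM. At 10 µM none of the 4 passed the test, with log2 differences between -0.30 and 0.04.

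MGMT (chr10:131265454-131569247, GRCh37, plus strand) was expressed in the control and lower in every treated culture. It read 89898, 99872 and 86579 FPKM in the control, 63894, 69776 and 62261 at 5 µM, with 55903, 77250 and 66039 at 10 µM. The log2 difference was -0.50 at 5 µM (SE 0.09, adjusted p = 0.00669) and -0.48 at 10 µM (SE 0.16, adjusted p = 0.0792). MSH6, a subunit of a mismatch recognition complex, read 84105, 86866 and 82507 FPKM in the control, 101888, 111680 and 106615 at 5 µM, with 98973, 139283 and 94935 at 10 µM. Every treated culture was above every control culture, and MSH6 rose by 0.34 at 5 µM (SE 0.07, adjusted p = 0.0112), with 0.37 at 10 µM (SE 0.17, adjusted p = 0.165). With all 9 samples in 1 fit its adjusted p at 5 µM was 0.115. PMS2, a mismatch repair gene with many near-identical copies in the genome, did not pass the test, at -0.04 and -0.33.

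The 4 falls at 5 µM were each below 2-fold and depended on how libraries were scaled. With an upper quartile scaling, which moved the median of all genes from 0.14 to 0.48, FANCF, PALB2, ATR and MGMT had log2 differences of -0.04, -0.12, -0.09 and -0.15, none past the adjusted p, and 25 repair genes rose. With a median-of-ratios scaling the all-gene median was 0.18, and the same 17 and 4 counts were obtained.

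**Figure D3:**
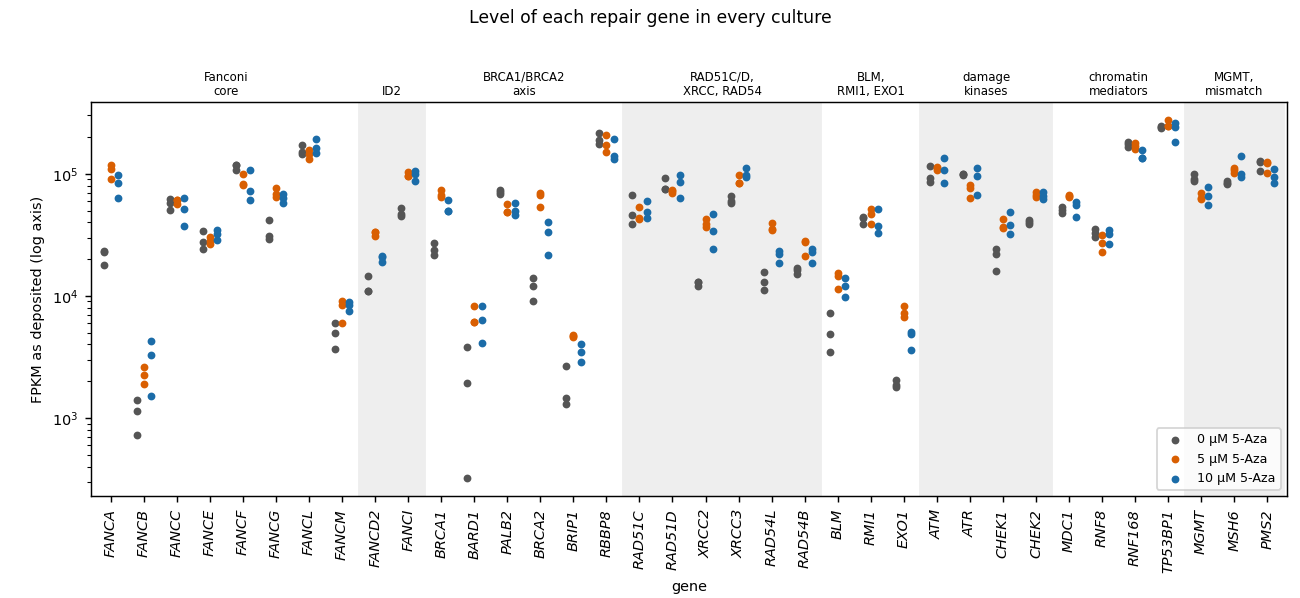
FPKM of each of the 36 repair genes in every culture (log axis), in order of role, with 3 points per group in gray for 0 µM, orange for 5 µM and blue for 10 µM. Levels in the control run from FANCB, with a mean of 1089, to TP53BP1, with 242339, and the single low point of BARD1 is control replicate 1 at 320.

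At 10 µM against 0 µM, 5 of the 36 genes rose past both thresholds, namely FANCA, FANCI, BRCA1, BRCA2 and XRCC2, or 13.9% of the list beside 4.07% of all 18928 genes tested. All 5 were among the 11 at 5 µM. By the adjusted p alone, 9 rose (25% beside 5.39% of all genes), with FANCG, XRCC3, CHEK1 and CHEK2 added, and none fell, beside 9.71% of all genes. Past both thresholds downward were none, beside 3.4% of all genes. The other 6 of the 11 genes had log2 differences of 0.69 to 1.24 and wider standard errors than at 5 µM. Groups at both doses stood above the control without overlap for 19 genes, and below it for 3, FANCF, PALB2 and MGMT. Among all 18754 genes tested at both doses, 12.1% were above the control without overlap at both and 17.8% below it. At 10 µM alone the shares of all genes were 14.4% and 26.7%. Both comparisons share the 3 control cultures, so they are not independent of each other. The count at 10 µM was 9 with median-of-ratios and 13 with upper quartile scaling, which moved the all-gene median from -0.15 to 0.08 and 0.24, and it was 2, BRCA1 and FANCA, after removal of 10 µM replicate 1, of control replicate 2 or of control replicate 3. BRCA2 and XRCC2 also lost their place without control replicate 1, and FANCI without 10 µM replicate 3. By the adjusted p, FANCG missed the threshold in 4, XRCC3 and CHEK2 in 5 each and CHEK1 in 6 of the 6 fits that left out 1 culture.

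Between the doses, none of the 36 genes was past both thresholds, beside 0.129% of all genes upward and 4.82% downward, and 5 of the 36 (13.9%) had an unadjusted p under 0.05, beside 24.8% of all genes. RAD54L alone passed the adjusted p, at -0.78 for 10 µM minus 5 µM (SE 0.17, adjusted p = 0.0436), beside 5.85% of all 20085 genes tested that fell by this criterion; 0.319% rose. BRCA2 differed by -1.04 (SE 0.25, adjusted p = 0.0576), EXO1 by -0.73 (SE 0.29, adjusted p = 0.184), FANCD2 by -0.67 (SE 0.16, adjusted p = 0.0539) and BRCA1 by -0.36 (SE 0.15, adjusted p = 0.188). BRCA2 became past both thresholds without 10 µM replicate 2, at -1.23 (adjusted p = 0.0186). With upper quartile scaling BRCA2, and no other gene of the list, fell by the adjusted p. RAD54L did not pass with median-of-ratios scaling, at -0.54 (adjusted p = 0.175), which moved the all-gene median from -0.31 to -0.08, with upper quartile scaling (adjusted p = 0.0813) or with the replicate block (adjusted p = 0.0928), nor after removal of any one 5 µM culture or of 10 µM replicate 1 or 3. In 8 genes (FANCD2, BRCA1, BRCA2, BRIP1, RAD54L, EXO1, MDC1 and RNF168) the 10 µM cultures were below the 5 µM cultures without overlap, which is 22.2% of the list and near the 25.3% of all genes tested. No gene of the list was higher without overlap, beside 4.37% of all genes. The 28 genes whose 2 treated groups overlapped included FANCI, at -0.01 (95% interval -0.32 to 0.29), CHEK1, at 0.03 (-0.43 to 0.48), ATM, at -0.06 (-0.50 to 0.37), ATR, at 0.30 (-0.21 to 0.81), MSH6, at 0.04 (-0.37 to 0.44), and MGMT, at 0.01 (-0.36 to 0.39).

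Promoter sequences of 34 of the 36 genes were read from RefSeq (GRCh38.p14), as windows from 250 bases before to 50 bases after 1 annotated start per gene, because 5-Aza acts on CpG methylation. The 34 windows held a median of 28.5 CpG dinucleotides, beside 14 in all 27305 promoter windows, and 24% of all windows held as many. MGMT held the most, 45, and CHEK1 the fewest, 12. The genes past both thresholds at 5 µM held a median of 28.5 (10 genes) and the others 28 (24 genes). The 150 bases before the start are shown for MGMT, which fell, FANCA and BRCA2, which rose most, and ATR, which fell, each 5′ to 3′ on the strand of the gene with CpG in capitals. The GRCh38.p14 positions are chr10:129467091-129467240 for MGMT (plus strand), chr16:89816648-89816797 for FANCA (minus), chr13:32315358-32315507 for BRCA2 (plus) and chr3:142578734-142578883 for ATR (minus).
MGMT: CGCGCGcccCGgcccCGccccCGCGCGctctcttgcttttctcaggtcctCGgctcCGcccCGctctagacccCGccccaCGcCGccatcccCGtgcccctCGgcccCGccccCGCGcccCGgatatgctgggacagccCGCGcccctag
FANCA: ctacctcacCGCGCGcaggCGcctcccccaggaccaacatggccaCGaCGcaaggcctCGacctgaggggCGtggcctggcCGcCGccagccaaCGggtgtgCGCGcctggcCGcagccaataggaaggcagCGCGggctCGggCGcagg
BRCA2: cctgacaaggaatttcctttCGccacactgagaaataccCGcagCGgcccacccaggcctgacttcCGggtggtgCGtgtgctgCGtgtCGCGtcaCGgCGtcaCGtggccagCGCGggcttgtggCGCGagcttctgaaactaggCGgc
ATR: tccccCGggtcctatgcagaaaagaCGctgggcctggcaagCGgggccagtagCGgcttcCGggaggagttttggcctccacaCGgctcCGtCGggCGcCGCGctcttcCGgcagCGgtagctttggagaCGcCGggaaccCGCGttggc
No methylation was measured in these files, so whether any of these CpG sites was methylated is not known.

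**Figure D4:**
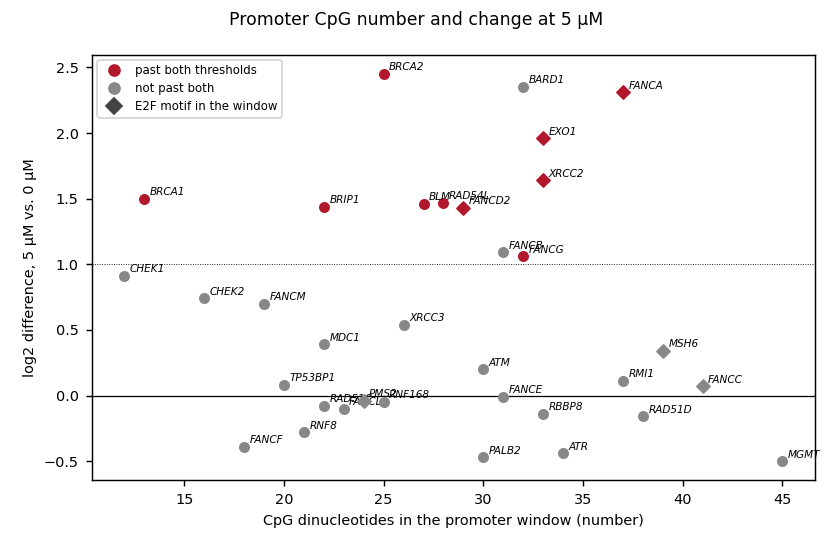
CpG dinucleotides in the promoter window (number, horizontal) against the log2 difference at 5 µM minus 0 µM (vertical) for the 34 repair genes with a window; red marks genes past both thresholds and diamonds an E2F motif. MGMT, with 45 CpG, lies at -0.50, and BRCA1, with 13, at 1.50. The outermost and canonical starts of BRCA1 lie 44881 bases apart, so its window may not be that of the start in use.

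E2F factors drive many genes of DNA replication, and a motif for them was searched in the same windows on both strands, with the spellings TTTCCCGC, TTTCGCGC, TTTGCCGC and TTTGGCGC. It was present in 7 of 34 windows (FANCA, FANCC, FANCD2, XRCC2, EXO1, MSH6 and PMS2), beside 3.33% of all 27305 windows. Every spelling contains a CpG, and the 34 windows held more CpG than all windows (median 28.5 beside 14). The comparison was not matched for CpG number, so it cannot tell a share particular to these genes from one of CpG-rich windows. Of the 10 genes with a window that were past both thresholds at 5 µM, 4 held it, and of the other 24 genes 3 did. FANCC held it at 2 places and PMS2 at 1, and neither gene passed the test at 5 µM, with log2 differences of 0.07 and -0.04. Only the sites of genes that rose are given below, those of the 4 genes past both thresholds and of MSH6. The choice thus follows the result. Each is shown with 9 bases on each side and the motif in capitals, 5′ to 3′ on the strand of the gene. A motif on the other strand reads as its reverse complement.
FANCA: tacaccgcgGCGGCAAAgccaaacgc
FANCD2: tcgggcctgGCGGGAAAgtcgaaaac
XRCC2: gcgttggtgGCGGGAAAgttgagtct
EXO1: aggtcagccTTTCGCGCgctgtgtag
MSH6: ccccccagaTTTCCCGCcagcaggag
Their GRCh38.p14 positions are chr16:89816803-89816828 (FANCA, minus strand), chr3:10026426-10026451 (FANCD2, plus), chr7:152676104-152676129 (XRCC2, minus), chr1:241848199-241848224 (EXO1, plus) and chr2:47783139-47783164 (MSH6, plus). The motif is written against 1 annotated start per gene, and some genes have starts far apart. In GRCh37 the outermost start lies 135067 bases from that of the canonical transcript for RBBP8, 109087 for FANCC, 87615 for MSH6, 44881 for BRCA1 and 17572 for TP53BP1, so for these 5 genes, 2 of which hold the motif, the window may not be the one in use. The start of each window was not compared with the canonical start, so windows of other genes may lie off the start in use too. A CCAAT box (CCAAT) was in 17 of the 34 windows and 35.7% of all windows, the CHR element (TTTGAA or TTCGAA) in 4 and 16.6%, and the core motif of NRF1 in 2 and 2.96%. A match is a stretch of letters and says nothing of whether a factor was bound.

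The other repair genes, 112 of 7 lists, went both ways at 5 µM. Past both thresholds upward were 10 of them (8.93%, beside 14.1% of all genes tested) and downward none, with a median log2 difference of -0.01. By the adjusted p alone, 22 rose (19.6%, beside 21.3% of all genes) and 25 fell (22.3%, beside 17.7%). Among 27 further recombination and Fanconi genes, 8 rose and 6 fell. RAD51AP1, a recombination accessory gene, read 13310, 8563 and 7448 FPKM in the control and 36304, 41092 and 37534 at 5 µM, and rose most, by 2.01 (SE 0.24, adjusted p = 0.00127). The nuclease gene MUS81 fell most in that list, at -0.71 (adjusted p = 0.000725).

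Of 20 damage signalling genes 7 rose and 4 fell, led by CLSPN, the adaptor that brings CHEK1 to ATR, with 1.92 (SE 0.20, adjusted p = 0.000871). Of 3 mismatch repair genes PMS1 fell, at -0.45 (SE 0.10, adjusted p = 0.0151), and MSH3 and MLH3 did not pass the test. Of 19 base excision genes 4 rose and 2 fell, of 9 end joining genes 2 rose and 3 fell, and of 17 crosslink and bypass genes 1 rose and 3 fell. That 1 was HLTF, a fork remodeling translocase, whose control cultures read 177, 0 and 166 FPKM and its 5 µM cultures 6777, 14860 and 11022. Of 17 nucleotide excision genes none rose, beside 21.3% of all genes, and 6 fell, with ERCC8 lowest at -0.71 (adjusted p = 0.0249).

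Cell cycle lists stood beside these changes. Of 17 S-phase genes, 9 rose past both thresholds at 5 µM (52.9%, beside 14.1% of all genes tested). At 10 µM against the control 10 did (58.8%, beside 4.07%). Their median log2 differences were 1.02 and 1.18, beside 0.14 and -0.15 for all genes tested. PCNA, the sliding clamp, rose by 0.53 at 5 µM (SE 0.13, adjusted p = 0.0224). Between the doses CDC6, a replication licensing factor, fell past both thresholds, at -1.30 (SE 0.19, adjusted p = 0.0107), and by the adjusted p alone CCNE1, a G1/S cyclin, fell, at -0.67 (SE 0.14, adjusted p = 0.0393), and TYMS, thymidylate synthase, rose by 0.64 (SE 0.13, adjusted p = 0.0332). Of 12 G2/M genes none passed the adjusted p at 5 µM against the control (3, or 25%, had an unadjusted p under 0.05, beside 48.6% of all genes). At 10 µM, 11 of the 12 fell past both thresholds against 5 µM, beside 4.82% of all genes tested, and 9 against the control, beside 3.4%. CCNB2, a mitotic cyclin, was the lowest of them between the doses, at -2.05 (adjusted p = 0.00197). The median log2 difference of the G2/M genes between the doses was -1.53. It was -0.17 for the 36 repair genes, -0.11 for the other repair genes and -0.31 for all genes tested. The G2/M count between the doses was 2 to 6 when a 5 µM culture was left out. The part of a shift in the share of cells in S phase in the repair genes' rise was not tested.

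**Figure D5:**
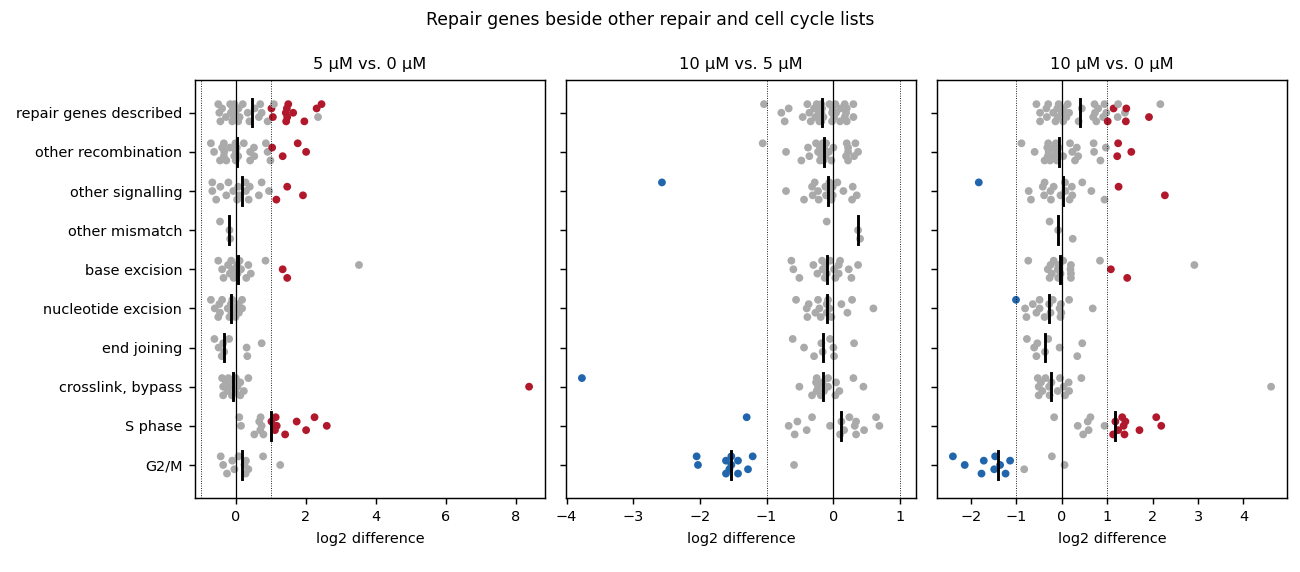
Log2 difference of every gene of the 36 repair genes, of 7 lists of other repair genes and of the S-phase and G2/M lists, in the 3 comparisons; points are genes, red or blue where past both thresholds upward or downward, and black bars are medians. At 5 µM the medians are 0.46 for the repair genes and 1.02 for the S-phase genes, and between the doses that of the G2/M genes is -1.53.

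Precision differed among the genes. Fragments behind each value were estimated from the smallest steps between FPKM values and the length of the canonical transcript. Libraries were put on 1 scale by the smallest values above 0 of 12 microRNA genes of 110 bases. The relation was set on 91 genes with clear steps, as the one that held the most of them within 1%, which was 29. Of the 91, 60 followed the relation within 15%. It was not checked on other genes, so the estimates are rough. The median over the 36 genes of the estimate in their lowest library was 206 fragments. By this estimate FANCB, BARD1 and EXO1 had a library with fewer than 10 (3.99, 2.2 and 8.64) and BRIP1 one with 15.3. If so, the fold changes of these 4 genes rest on few fragments in the control, and these estimates cover counting error only. Exon sequence was also shared with a neighboring gene of the files for FANCF (GAS2), FANCL (VRK2), ATM (C11orf65), CHEK1 (STT3A), TP53BP1 (TUBGCP4), MSH6 (FBXO11) and RBBP8 (MIR4741), so reads from these places cannot be assigned with certainty.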

How the data were processed

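Paired-end RNA-Seq libraries of 9 HT-29 cultures, 3 each at 0, 5 and 10 µM 5-Aza, were used, and groups were taken from the sample labels. The authors ran FASTX-Toolkit for read filtering, TopHat for alignment (build hg19) and Cufflinks for the FPKM of each gene, and the deposited FPKM values are the input here. The annotation version, the Cufflinks options and the use of strand are not given in the sources used here. Repeated symbols were summed; of the 36 genes this concerned MDC1, with 8 entries, 7 of them at 0 throughout. The study gives a range of reads over its libraries but no total for each, so the depth behind a value rests here on the step-based estimates.

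Genes whose largest value reached 10 in either group were compared on log2(FPKM + 1) over the 6 samples of a pair. The fit was made in limma 3.58.1 under R 4.3.3 (lmFit, eBayes with a trend), with Benjamini-Hochberg adjustment over all genes tested and no replicate block. On this scale the added 1 is small. FANCB, the lowest of the list, differed by 1.09 at 5 µM with 1 or 0.1 added and by 0.65 with 1000 added. Where a culture reads 0, as for HLTF, the size of a difference depends on the number added. Past both thresholds means a log2 difference beyond 1 in either direction with an adjusted p no higher than 0.05. The fit was tested on simulated data. The authors' microarray and qRT-PCR data were not analysed here. Replicates of a group correlated at 0.957 to 0.970 (Pearson, log2, across genes), with no identical values.

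The members and the gene lists were chosen with earlier results of these data known. Values per culture and full statistics were given for each member past both thresholds and always for BRCA1, BRCA2, FANCD2, ATM, ATR, CHEK1, MGMT and MSH6; BARD1 was given in full after its values were seen. Genes outside the list were named only as the largest rise or fall of a fixed list or as PCNA; MSH3 and MLH3 were named as the rest of their list, and CCNE1 and TYMS after their values were seen. Some repair genes are not reported here and are in no list. Gene positions are from GENCODE on GRCh37 and promoter sequences from RefSeq on GRCh38.p14; FANCI and RAD54B had no promoter entry. Alternatives were another pseudocount (0.1 or 1000), 2 other filters, all 9 samples in 1 fit, a replicate block, 2 scalings, no fold threshold, limma's treat test against 2-fold, the largest entry of repeated symbols, and leaving out each replicate. Python 3 with pandas, numpy and matplotlib was used.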

Additional observations from a re-analysis of the deposited data

How the results depend on the processing

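At 5 µM against 0 µM, BRCA1, BRCA2, EXO1, FANCA, FANCD2, RAD54L and XRCC2 were past both thresholds in every alternative but limma's treat test, which tests against 2-fold itself and kept 4 genes (BRCA1, BRCA2, FANCA and XRCC2). The count of 11 ranged from 8 to 11 when single cultures were left out and was 16 with upper quartile scaling; with no fold threshold it was 17 up and 4 down. At 10 µM against 0 µM the count of 5 was 9 with median-of-ratios scaling, 13 with upper quartile scaling, 9 with no fold threshold, 0 with treat and 2 to 5 when single cultures were left out; BRCA1 and FANCA kept their place in all but treat. Between the doses 1 gene was past both thresholds downward with a pseudocount of 1000 and with all 9 samples in 1 fit (BRCA2 in each), 1 (RAD54L) with no fold threshold, and 0 to 1 when single cultures were left out.

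The count of other repair genes in either direction was 10 at 5 µM and 18 with upper quartile scaling, 47 with no fold threshold, 3 with treat and 8 to 11 with single cultures left out. Between the doses it was 2, and 1 with the replicate block, 0 with treat and 0 to 2 with cultures left out. At 10 µM against 0 µM it was 9, and 14 with upper quartile scaling, 21 with no fold threshold, 0 with treat and 4 to 12 with cultures left out. The S-phase count at 5 µM was 14, 15 and 4 with upper quartile scaling, no fold threshold and treat, and 7 to 9 with cultures left out; at 10 µM against 0 µM it was 1 with treat and 5 to 9 with cultures left out, and between the doses 1 rose and 2 fell with no fold threshold. The G2/M count was 1 with treat in either comparison of 10 µM, 2 to 11 with cultures left out between the doses and 3 to 9 against 0 µM. The cause of these shifts was not tested.

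Between the doses, differences near 0 changed sign in some settings, none past a threshold. With median-of-ratios scaling FANCG was 0.09, FANCI 0.23, BARD1 0.06, XRCC2 0.03, BLM 0.03 and ATM 0.18, and with upper quartile scaling FANCI was 0.04. With single cultures left out the ranges were -0.01 to 0.74 for FANCB, -0.07 to 0.07 for FANCI, -0.41 to 0.09 for BARD1, -0.45 to 0.03 for XRCC2, -0.23 to 0.11 for ATM, -0.12 to 0.17 for CHEK1, -0.10 to 0.13 for MGMT and -0.14 to 0.14 for MSH6. At 10 µM against 0 µM ATR was 0.10 with median-of-ratios and 0.26 with upper quartile scaling and -0.30 to 0.07 with cultures left out, and ATM -0.04 to 0.31. Over all 36 genes and all alternatives, 9, 19 and 13 changed sign in the 3 comparisons, with main differences of at most 0.28, 0.30 and 0.34, and none of them past the adjusted p.

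With the replicate number as a block, the counts were 10 at 5 µM (BRIP1 lost), 0 between the doses and 5 at 10 µM against 0 µM; by the adjusted p alone RAD54B and MDC1 were also lost at 5 µM and RAD54L between the doses. Deviations from the group means correlated at -0.07 to 0.09 for the 9 pairs of cultures with the same number and at -0.16 to 0.10 for the 18 with different numbers. The labels do not say whether cultures of the same number were handled together. These correlations cannot settle it, since an effect on few genes would leave them near 0.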
